A study of Mus musculus with 14 samples.

Results

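Chemoattractant receptors are membrane proteins through which leukocytes sense and move towards chemokines, peptides and lipids. Of these, 7 genes were followed in CD11b+ microglia/macrophages after traumatic brain injury (TBI), namely Ccr1, Ccrl2, Cxcr4, Cmklr1, Fpr1, Fpr2 and Ptafr. They were taken as a list of symbols and all 7 matched a gene among the 33939 in the table. Each was above 0 in all 14 libraries.

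Most of these receptors couple to inhibitory G proteins and start directed movement, adhesion and the oxidative burst. They are then silenced by receptor kinases, arrestins and regulators of G protein signalling. Microglia use such receptors to move towards damage, and monocytes and neutrophils use them to enter injured tissue. Ccr1 and Cxcr4 are chemokine receptors, Ccrl2 is an atypical receptor that holds chemerin at the cell surface without signalling through G proteins, and Cmklr1 is the signalling receptor for chemerin. Fpr1 and Fpr2 sense formylated peptides of bacteria and mitochondria, and Ptafr is the receptor for platelet-activating factor (PAF), a lipid.

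RNA was sequenced from CD11b+ cells of the ipsilateral (IL, injured) and contralateral (CL) hemispheres at 3 days post-TBI. The C57BL/6 mice were 8 to 12 weeks old, and all had received tamoxifen and carried Cx3cr1-CreER+/-. Ctrl mice had no further allele in the labels, and cKO mice were Cx3cr1-CreER+/-;Nhe1flox/flox. The groups were Ctrl CL (4 libraries), Ctrl IL (4), cKO CL (3) and cKO IL (3), and libraries are named here by group and mouse number. The 4 Ctrl mice and cKO mice 791 and 3592 gave both hemispheres, and the numbers 784 and 788 each stand on 1 cKO library, IL and CL. They were taken as different mice, which the labels do not settle. The Cre is driven from the Cx3cr1 locus, so that every group, Ctrl included, has Cre at 1 allele of that receptor gene, and any CD11b+ cell without Cx3cr1 activity lies outside the deletion. The paper also left time between tamoxifen and injury so that peripheral Cx3cr1+ monocytes would be replaced, and such cells may lie outside it too. Uninjured mice did not enter, so that CL is the non-lesion side of an injured brain.

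Values are CPM, reads per 1000000 reads assigned to genes. Depth, read from the smallest step between values, ranged from 12.2 to 41.6 M reads (1 M is 1000000), with Ctrl IL 3546 the lowest. Genes were compared with limma on log2(CPM + 1), and genes were called that changed by at least 1.2-fold with p no higher than 0.05 after Benjamini-Hochberg adjustment over all genes tested. Fold changes on this scale understate changes of genes near 1 CPM. The sorted cells carried microglial markers, whose sum over 9 genes such as P2ry12 and Tmem119 was 25265 to 35799 CPM in CL and 14179 to 16865 CPM in IL. Of these 9, 7 fell in IL in Ctrl and 6 in cKO, beside 2.96% and 9.52% of all genes. Of 9 monocyte markers, 4 rose in IL in Ctrl and 6 in cKO, among the latter Plac8 (log2 fold change 1.33), while Ly6c2 was not called (-1.03 in Ctrl and 0.91 in cKO), and 3.63% and 12.8% of all genes rose. The sum was 3.82 to 19.1 CPM for 8 T and NK cell markers and 1.17 to 3.27 CPM for 5 neuron markers. Sums of other cell types were larger, at 320 to 833 CPM for B cell, 221 to 744 for dendritic cell and 176 to 788 for border macrophage markers. Oligodendrocyte markers summed to 167 to 302 CPM, endothelial markers to 58.4 to 211 and astrocyte markers to 27.0 to 96.3. In bulk samples, fewer cells of a type and less RNA per cell cannot be told apart.

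Ccrl2 was by far the most abundant of the 7 receptors. Per length of exon, its mean level was 143 CPM per kb in Ctrl CL, 273 in Ctrl IL, 335 in cKO CL and 571 in cKO IL. Ccr1 followed in the IL hemispheres with 33.6 CPM per kb in Ctrl and 27.9 in cKO, and Fpr1 had 21.0 in Ctrl CL but 2.91 in cKO IL. Cxcr4 ranged from 2.61 CPM per kb in cKO CL to 13 in Ctrl IL, Ptafr from 9.32 to 12.0, Cmklr1 from 2.54 to 4.48 and Fpr2 from 0.993 to 5.57. Ccrl2 alone took 63.9% to 93.6% of the summed CPM of the 7 genes in a library. The reads behind a value ranged from 17 for Fpr2 in Ctrl IL 3546 to 70182 for Ccrl2. Fpr2 thus had the fewest reads, while Fpr1 had the largest SE of the 7 in each comparison with limma.

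**Figure D1:**
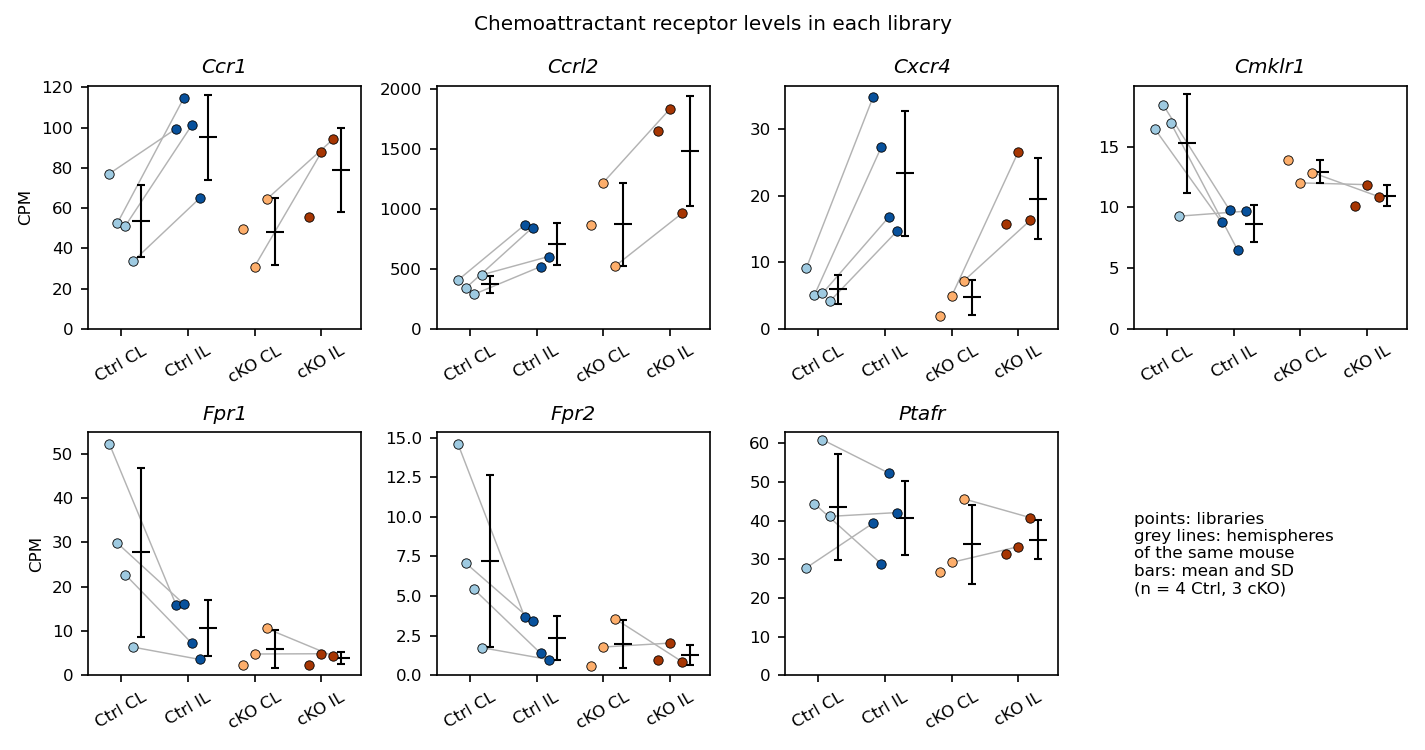
CPM of the 7 receptors (vertical axes from 0, a different range for each gene) in each library, by group, with the mean and SD beside the points and grey lines that join the hemispheres of a mouse. Cxcr4 is 14.7 to 34.9 in Ctrl IL against 4.23 to 9.18 in Ctrl CL, Ccrl2 is highest in cKO IL, and Fpr1 and Fpr2 are highest in Ctrl CL 3541.

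Injury side was compared first, IL against CL within each genotype. In Ctrl, 1 of the 7 members was called higher, Cxcr4, against 3.63% of all 16376 genes tested, and 0 were called lower, against 2.96%. In cKO, 1 of 7 was called higher, again Cxcr4, against 12.8% of 16758 genes, and 0 were called lower, against 9.52%. Unadjusted p values at or under 0.05 with limma were found for 3 members higher and 1 lower in Ctrl, and for 3 higher and 0 lower in cKO, beside 1534 genes higher and 1926 lower of the 16376 in Ctrl and 3360 and 2772 of the 16758 in cKO. The median log2 fold change of the 7 was -0.0040 in Ctrl and 0.16 in cKO, beside -0.038 and 0.019 over all genes.

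The hemispheres of 1 mouse are paired, and with the mouse as a block 5 of the 7 were called in Ctrl and 3 in cKO. In Ctrl these were Ccr1, Ccrl2 and Cxcr4 higher, against 9.81% of all genes called higher in that paired fit, and Fpr1 and Fpr2 lower, against 10.7%. In cKO they were Ccr1, Ccrl2 and Cxcr4 higher, against 8.87%, and 0 were lower, against 4.92%. The paired cKO values come from mice 791 and 3592 alone, since 784 and 788 were taken as different mice with 1 hemisphere each.

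Cxcr4 (ENSMUSG00000045382, GRCm38 chromosome 1, 128588199 to 128592293, minus strand) is the receptor for Cxcl12 and a marker of recruited and activated myeloid cells. Its CPM in Ctrl CL was 9.18, 5.09, 5.33 and 4.23 in mice 3541, 3545, 3546 and 3551, and in Ctrl IL it was 34.9, 27.3, 16.9 and 14.7 in the same order. The 2 sides did not overlap, and IL was higher in each of the 4 mice, by 3.16 to 5.36 times. In cKO CL it was 1.99, 4.95 and 7.20 in mice 788, 791 and 3592, and in cKO IL it was 15.8, 26.7 and 16.3 in mice 784, 791 and 3592, again without overlap. The mean rose from 5.96 ± 2.20 to 23.4 ± 9.40 CPM in Ctrl (SD, n = 4 each) and from 4.71 ± 2.61 to 19.6 ± 6.13 CPM in cKO (SD, n = 3 each). The log2 fold change was 1.84 (SE 0.38, adjusted p = 0.0202, limma) in Ctrl and 2.01 (SE 0.37, adjusted p = 0.00812) in cKO. The sum over the 9 monocyte markers, none of them at 0, was 84.9 to 678 CPM in Ctrl CL, 544 to 807 in Ctrl IL, 88.7 to 247 in cKO CL and 558 to 714 in cKO IL, and the part of monocytes in the Cxcr4 values was not tested. The Ctrl call was lost, at an adjusted p of 0.0569 to 0.0654, without Ctrl CL 3545, Ctrl CL 3546, Ctrl IL 3541 or Ctrl IL 3545, each left out alone, while the fold change stayed between 1.55 and 1.85 in these fits, and it was also lost without the filter on low values (adjusted p = 0.0632). Between genotypes the value in IL was -0.19 (95% interval -1.07 to 0.68) and in CL -0.37 (-1.18 to 0.45), and these bounds give the size of difference that the number of mice could not resolve.

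Ccrl2 (ENSMUSG00000043953, chromosome 9, 111054486 to 111057519, minus strand) had the highest level, and its libraries separated by side in Ctrl and by genotype on both sides. In Ctrl CL it had 405, 341, 287 and 450 CPM in mice 3541, 3545, 3546 and 3551, and in Ctrl IL 866, 845, 519 and 603. In cKO CL it had 868, 1220 and 524 CPM in mice 788, 791 and 3592, and in cKO IL 1654, 1834 and 962 in mice 784, 791 and 3592. Ctrl IL lay above Ctrl CL without overlap, and each cKO group lay above the Ctrl group of its side without overlap, whereas cKO IL and cKO CL overlapped because mouse 3592 was the lowest on both sides. Every mouse with both sides had more in IL, by 1.34 to 2.48 times in Ctrl and 1.50 to 1.84 times in cKO. The log2 fold change of IL against CL was 0.99 (SE 0.28, adjusted p = 0.0636) in Ctrl and 0.88 (SE 0.36, adjusted p = 0.119) in cKO, called in neither because the adjusted p missed 0.05. With the mouse as a block both were called, at 0.99 (SE 0.15, adjusted p = 0.00474) and 0.84 (SE 0.18, adjusted p = 0.0208). Without Ctrl IL 3546, the library of lowest depth, the Ctrl value was 1.19 (adjusted p = 0.0166), and without each of the other Ctrl libraries it was 0.79 to 1.11 with an adjusted p of up to 0.175. The sum over 12 genes that respond to tissue dissociation, such as Fos and Fosb, was 30461 to 39922 CPM in Ctrl CL, 22595 to 26055 in Ctrl IL, 35107 to 47976 in cKO CL and 24210 to 28266 in cKO IL, lower in IL than in CL of each genotype and ranging higher in cKO CL than in Ctrl CL. Of these 12 genes Nr4a1 rose in IL in both genotypes (1.02 and 0.75), and the part of dissociation in the Ccrl2 values was not tested.

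Ccr1 (ENSMUSG00000025804, chromosome 9, 123962124 to 123968692, minus strand) is a receptor for Ccl3, Ccl5 and related chemokines on monocytes and neutrophils. Ctrl CL had 77.1, 52.4, 51.1 and 33.7 CPM in mice 3541, 3545, 3546 and 3551, and Ctrl IL had 99.4, 115, 101 and 65.0. cKO CL had 49.4, 30.9 and 64.3 CPM in mice 788, 791 and 3592, and cKO IL had 55.3, 87.6 and 94.2 in mice 784, 791 and 3592. The groups overlapped, since mice differed in level on both sides, but IL exceeded CL in all 6 mice that gave both, by 1.29 to 2.83 times. The log2 fold change was 0.92 (SE 0.32, adjusted p = 0.131) in Ctrl and 0.81 (SE 0.28, adjusted p = 0.0701) in cKO. With the mouse as a block it was called in both, at 0.92 (SE 0.12, adjusted p = 0.00300) and 1.11 (SE 0.23, adjusted p = 0.0197). Ccr1 was also called in cKO without cKO CL 3592 (1.03, adjusted p = 0.0210) and not without any other cKO library, with values as low as 0.53 and an adjusted p as high as 0.208. Its transcript matches that of its neighbour Ccr1l1 over 1036 bases at 77.5% identity.

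The stretches before the start sites of the receptors that were higher on the injured side in each mouse are shown because these 3 shared that direction. They are the 250 bases upstream of the RefSeq start (GRCm38.p6), 5′ to 3′ on the gene's strand, with matches to the motifs searched in capitals. They lie at chr9:111057519-111057768 (Ccrl2), chr9:123968693-123968942 (Ccr1) and chr1:128592300-128592549 (Cxcr4), all on the minus strand.
Ccrl2: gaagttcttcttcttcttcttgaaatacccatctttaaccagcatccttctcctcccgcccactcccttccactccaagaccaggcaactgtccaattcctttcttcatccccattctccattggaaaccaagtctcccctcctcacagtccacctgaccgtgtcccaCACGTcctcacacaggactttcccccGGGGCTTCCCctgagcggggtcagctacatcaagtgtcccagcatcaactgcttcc
Ccr1: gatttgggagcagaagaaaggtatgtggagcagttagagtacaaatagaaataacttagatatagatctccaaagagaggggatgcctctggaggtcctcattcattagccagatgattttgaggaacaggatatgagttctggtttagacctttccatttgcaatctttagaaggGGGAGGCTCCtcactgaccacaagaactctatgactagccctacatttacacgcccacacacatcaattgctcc
Cxcr4: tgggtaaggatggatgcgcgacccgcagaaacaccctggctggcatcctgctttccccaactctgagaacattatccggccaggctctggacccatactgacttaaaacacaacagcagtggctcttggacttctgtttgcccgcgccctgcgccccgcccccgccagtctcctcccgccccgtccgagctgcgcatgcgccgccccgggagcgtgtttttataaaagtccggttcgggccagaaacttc
The later capitals in Ccrl2 and those in Ccr1 are matches to the NF-kB consensus, 56 to 47 and 74 to 65 bases upstream. The earlier capitals in Ccrl2 are the core of the hypoxia response element (ACGTG, on the other strand). Of the 7 members, 2 held an NF-kB match, against 7.25% of 32851 promoter windows of this length, and 2 (Ccrl2 and Cmklr1) held the hypoxia core, against 16.6%. None of the 7 held AP-1 (TGANTCA, in 6.75% of windows), C/EBP (TTGCNNAA, 9.56%), PU.1 (GAGGAAG, 10.6%) or the interferon element (GAAANNGAA, 7.13%), searched on both strands. A match is a run of letters and not a site in use.

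Cmklr1 (ENSMUSG00000042190, chromosome 5, 113612354 to 113650426, minus strand) had lower mean levels in IL than in CL, unlike its partner for chemerin, at 8.66 ± 1.54 against 15.3 ± 4.08 CPM in Ctrl (SD, n = 4 each) and 11 ± 0.87 against 12.9 ± 0.96 CPM in cKO (SD, n = 3 each). Ctrl CL had 16.4, 18.4, 16.9 and 9.27 CPM in mice 3541, 3545, 3546 and 3551, and Ctrl IL had 8.76, 9.76, 6.46 and 9.68. IL was lower in 3 of 4 mice, at 0.382 to 0.534 times CL, and mouse 3551, with the lowest CL value, had 1.04 times. cKO CL had 13.9, 12.0 and 12.9 CPM in mice 788, 791 and 3592, and cKO IL had 10.1, 11.9 and 10.9 in mice 784, 791 and 3592, without overlap. The log2 fold change was -0.66 (SE 0.29, adjusted p = 0.229) in Ctrl and -0.14 (SE 0.15, adjusted p = 0.530) in cKO, and it was not called with the mouse as a block (adjusted p = 0.0802 and 0.954), though it was in Ctrl with the mouse as a random effect over all 14 libraries (-0.64, adjusted p = 0.0235). In IL, cKO lay above Ctrl without overlap, with a log2 fold change of 0.33 (SE 0.22, adjusted p = 0.786). The gene for chemerin, Rarres2, was low, at 0.182 to 2.37 CPM over the 14 libraries, and was not called in any comparison.

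Fpr1 (ENSMUSG00000045551, chromosome 17, 17876471 to 17883940, minus strand) and Fpr2 (ENSMUSG00000052270, chromosome 17, 17887824 to 17893952, plus strand) are neighbours and were highest on the non-lesion side of Ctrl mice. Fpr1 had 52.3, 29.8, 22.7 and 6.35 CPM in Ctrl CL of mice 3541, 3545, 3546 and 3551, and 16.0, 16.1, 7.20 and 3.57 in Ctrl IL. It had 2.38, 4.80 and 10.6 CPM in cKO CL of mice 788, 791 and 3592, and 2.37, 4.86 and 4.33 in cKO IL of mice 784, 791 and 3592. All 4 Ctrl mice had less in IL, at 0.305 to 0.562 times CL, while the groups overlapped because mice differed by more than the sides did. Fpr2 had 14.6, 7.07, 5.43 and 1.74 CPM in Ctrl CL, 3.70, 3.41, 1.39 and 0.994 in Ctrl IL, 0.581, 1.78 and 3.56 in cKO CL and 0.966, 2.03 and 0.867 in cKO IL, in the same orders of mice. It followed Fpr1 library by library, with a Pearson r of 0.970 over the 14 libraries on the log2 scale.

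IL against CL in Ctrl, the log2 fold change of Fpr1 was -1.11 (SE 0.68, adjusted p = 0.407) and that of Fpr2 was -1.06 (SE 0.55, adjusted p = 0.313). With the mouse as a block both were called, at the same fold changes with SE 0.19 (adjusted p = 0.00845) and SE 0.23 (adjusted p = 0.0193). With the mouse as a random effect over all 14 libraries Fpr2 was called (-1.05, adjusted p = 0.0392) and Fpr1 was not (-1.09, adjusted p = 0.0569). In cKO the values were -0.30 (SE 0.41) and -0.22 (SE 0.37), not called with or without the block, and they turned to 0.15 and 0.14 without cKO CL 3592. The difference between genotypes in this injury effect was not called for either gene, at 0.82 (95% interval -1.19 to 2.83) and 0.84 (-0.82 to 2.50). Fpr2 shares 48 exon bases with its neighbour Fpr3 and 87.4% identity over 1131 bases, and 95.8% identity over 1037 bases with Gm5966, so that reads may be divided between these genes.

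Neutrophils carry both formyl peptide receptors. The sum over 11 neutrophil markers, S100a8 and S100a9 among them, was 1421 to 8559 CPM in Ctrl CL, 922 to 1514 in Ctrl IL, 1325 to 2397 in cKO CL and 914 to 1186 in cKO IL, and none of the 11 was at 0 in a library. Ctrl CL 3541 was the highest library in this sum, in Fpr1 and in Fpr2. S100a8 had 899, 293, 416 and 109 CPM in Ctrl CL and 161, 109, 9.33 and 32.1 in Ctrl IL, in mice 3541, 3545, 3546 and 3551. With the mouse as a block 9 of the 11 markers fell in IL in Ctrl and 7 in cKO, against 0 and 6 without it, beside 10.7% and 4.92% of all genes called lower with the block and 2.96% and 9.52% without. The genes most like Fpr1 over the 14 libraries were Hp, Mmp8 and Cxcr2 (Pearson r 0.949, 0.946 and 0.923, among 9752 genes with a mean log2 level of at least 3), of which Mmp8 is a marker on the list. Fpr2 was most like Hp, Fpr1 and Mmp8 (0.973, 0.970 and 0.945). The part of neutrophils in these values was not tested.

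**Figure D2:**
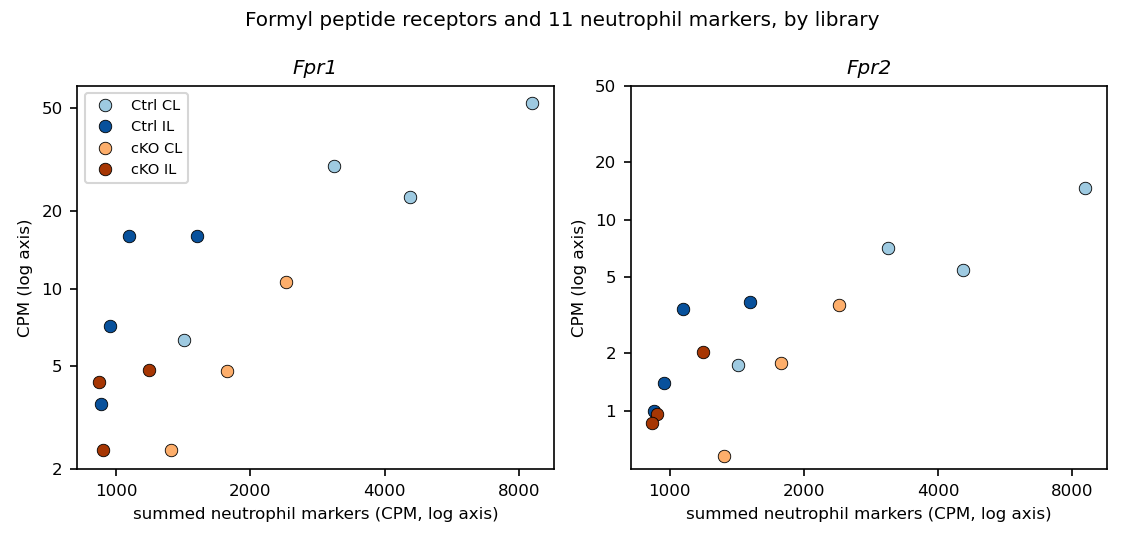
CPM of Fpr1 and Fpr2 (vertical axes, log) against the summed CPM of 11 neutrophil markers (horizontal axes, log) in each of the 14 libraries, coloured by group. Ctrl CL 3541 is at the top right of both, with a sum of 8559, and the cKO IL libraries lie at sums of 914 to 1186.

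Ptafr (ENSMUSG00000056529, chromosome 4, 132564067 to 132582683, plus strand) was the most even member. Its CPM in Ctrl CL was 27.8, 44.4, 61.0 and 41.1 in mice 3541, 3545, 3546 and 3551, and in Ctrl IL 39.4, 28.9, 52.3 and 42.1. In cKO CL it was 26.8, 29.2 and 45.7 in mice 788, 791 and 3592, and in cKO IL 31.3, 33.3 and 40.8 in mice 784, 791 and 3592. All groups overlapped, and IL was higher in 2 and lower in 2 of the Ctrl mice. The log2 fold change of IL against CL was -0.0040 (95% interval -0.48 to 0.47) in Ctrl and 0.16 (-0.25 to 0.58) in cKO, and these bounds give the size of change that could not be resolved.

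Of 7 genes for enzymes that make or break PAF, Pla2g7 rose and Lpcat2 and Lpcat1 fell in both genotypes, while Pafah1b1, Pafah1b2, Pafah1b3 and Pafah2 were called in neither. Over all genes 3.63% rose and 2.96% fell in Ctrl, and 12.8% rose and 9.52% fell in cKO. The Ctrl call of Lpcat2 was lost without any 1 of the Ctrl libraries other than Ctrl CL 3551 (adjusted p = 0.0532 to 0.108), and that of Pla2g7 without Ctrl CL 3546, Ctrl IL 3541 or Ctrl IL 3545 (0.0670 to 0.0749), while Lpcat1 stayed called without each. Without the filter the Ctrl calls of Lpcat2 and Pla2g7 were lost too (adjusted p = 0.106 and 0.0816). Lpcat2, the enzyme that makes PAF in inflammatory cells, had 1529, 1765, 1785 and 1324 CPM in Ctrl CL and 847, 871, 950 and 782 in Ctrl IL, without overlap. It fell by 0.81 on the log2 scale in Ctrl (SE 0.19, adjusted p = 0.0355) and by 0.66 in cKO (SE 0.18, adjusted p = 0.0336). The cKO call of Lpcat2 was lost with the mouse as a block (adjusted p = 0.0858), in a single fit of all 14 libraries (0.0624) and without the filter (0.0760). It was also lost without any 1 of the cKO libraries other than cKO CL 791 (adjusted p = 0.0547 to 0.102). Pla2g7, the secreted enzyme that breaks PAF down, had 108, 89.2, 72.6 and 43.1 CPM in Ctrl CL and 426, 306, 253 and 158 in Ctrl IL. It rose by 1.92 in Ctrl (SE 0.42, adjusted p = 0.0250) and by 1.74 in cKO (SE 0.35, adjusted p = 0.0109), and it was higher in IL in all 6 mice with both sides. Lpcat1, a lung-type enzyme of the same family, fell by 0.78 in Ctrl and 0.70 in cKO.

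**Figure D3:**
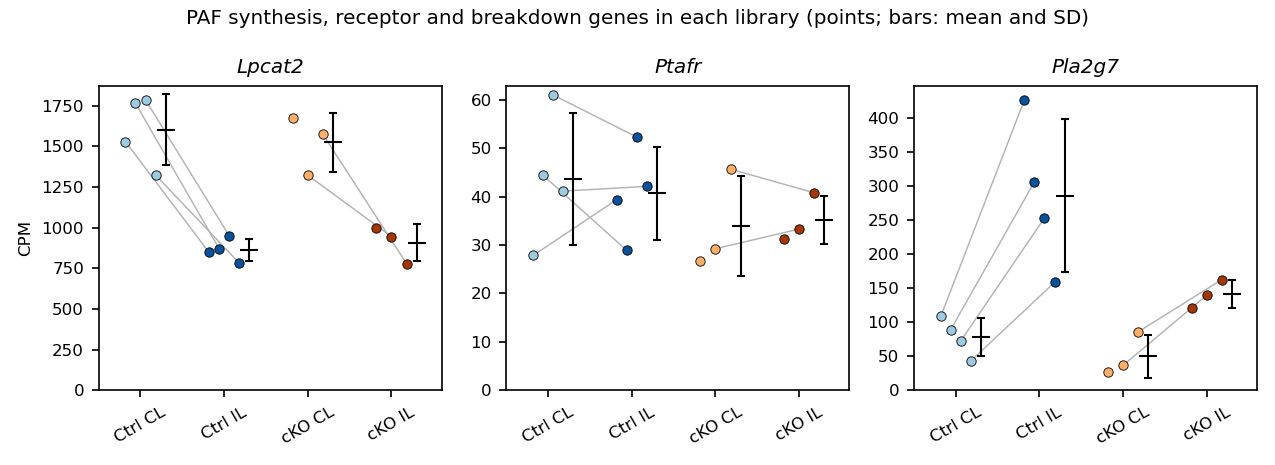
CPM (vertical axes from 0) of Lpcat2, Ptafr and Pla2g7 in each library, by group, with mean and SD and grey lines that join the hemispheres of a mouse. Lpcat2 lies lower and Pla2g7 higher in IL than in CL of each genotype, while the Ptafr groups overlap.

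Genotype was compared within each hemisphere, the question being whether loss of Nhe1, the sodium/proton exchanger of the cKO, changed these receptors. In IL, 0 of 7 members were called by limma, against 0.361% of 16919 genes higher and 0.301% lower, and 1 member, Ccrl2, had an unadjusted p at or under 0.05. In CL, 0 of 7 were called, against 0.464% of 16603 genes higher and 0.41% lower, and 3 members had an unadjusted p at or under 0.05, Ccrl2 higher and Fpr1 and Fpr2 lower. Over all genes such p values were found for 864 higher and 644 lower in IL and for 826 higher and 802 lower in CL. Ccrl2 was 2.10 times as high in cKO IL as in Ctrl IL by the group means and 2.35 times as high in CL. Its log2 fold change was 1.06 (SE 0.34, adjusted p = 0.335, limma) in IL and 1.16 (SE 0.28, adjusted p = 0.117, limma) in CL, and it was called in CL without cKO CL 3592 (1.51, adjusted p = 0.0215), while without each of the other CL libraries in turn it was not, down to 0.88 with an adjusted p of up to 0.484. Fpr1 in CL had a log2 fold change of -1.94 (SE 0.63, adjusted p = 0.285), which was called without Ctrl CL 3551 (-2.52, adjusted p = 0.0420) and not without any of the others, with values as near to 0 as -1.49 and an adjusted p as high as 0.756. Fpr2 in CL had -1.36 (SE 0.56, adjusted p = 0.430), beside a median of -1.30 over the 11 neutrophil markers in the same comparison. The genotype comparisons share no library with each other, but each shares its libraries with the injury comparisons, and the 4 Ctrl mice and cKO mice 791 and 3592 gave libraries to both, so that the 2 sides are not independent observations.

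Counts of members without overlap between groups were read beside the same over all genes. IL against CL in Ctrl, 2 of 7 lay higher without overlap (6.26% of all genes) and 0 lower (11.4%). In cKO, 1 lay higher (18.1%) and 1 lower (24.3%). Between genotypes, 2 lay higher in cKO IL (4.84%) and 0 lower (5.47%), and in CL 1 lay higher (3.97%) and 0 lower (6.02%). The genotype by hemisphere interaction was called for 0 of 7 members and for 0% of 18476 genes with limma, while 269 genes higher, 212 lower and 0 members had an unadjusted p at or under 0.05. For Ccrl2 the interaction was -0.10 (95% interval -1.13 to 0.93) and for Cxcr4 0.17 (-1.08 to 1.41).

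**Figure D4:**
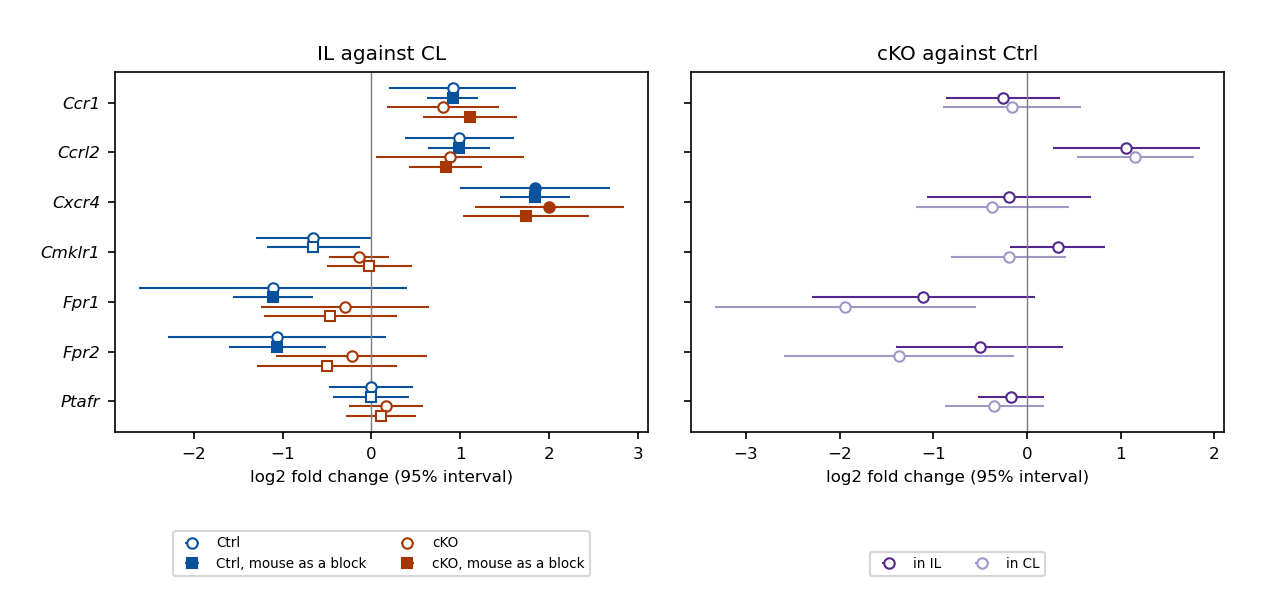
Log2 fold changes of the 7 receptors with 95% intervals, IL against CL (left, in each genotype, circles without and squares with the mouse as a block) and cKO against Ctrl (right, in each hemisphere). Filled symbols are called: Cxcr4 in both genotypes, and with the block also Ccr1 and Ccrl2 in both and Fpr1 and Fpr2 in Ctrl.

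Among 34 other chemoattractant receptors, 22 were tested in each injury comparison. In Ctrl 4 rose and 1 fell, with a median of 0.016 on the log2 scale, and in cKO 4 rose and 2 fell, with a median of 0.20. Over all genes 3.63% rose and 2.96% fell in Ctrl, and 12.8% rose and 9.52% fell in cKO. Ccr7, the receptor that guides dendritic cells to lymph nodes, rose by 1.85 (SE 0.24) in Ctrl and 1.78 (SE 0.32) in cKO. Of 6 dendritic cell markers, 1 had a log2 fold change above 0 and 5 below 0 in Ctrl, and 3 and 3 in cKO. None was called in Ctrl and 2 were called lower in cKO, and the part of dendritic cells in the Ccr7 values was not tested. The complement receptors C5ar1 and C3ar1 rose by 0.74 and 0.65 in Ctrl and by 1.49 and 1.10 in cKO, the Ctrl calls being lost without 6 and 7 of the 8 libraries, each left out alone. Both Ctrl calls were also lost without the filter (adjusted p = 0.115 and 0.0991, limma). Ccr2, the monocyte receptor for Ccl2, rose by 1.10 in Ctrl (adjusted p = 0.00519, limma), and in cKO it was called with the mouse as a block (0.78, adjusted p = 0.0363). Cx3cr1, the fractalkine receptor of microglia and the locus of the Cre, fell by 0.77 in Ctrl and 1.08 in cKO, the Ctrl call being lost without Ctrl CL 3546, Ctrl IL 3541, Ctrl IL 3545 or Ctrl IL 3551 (adjusted p = 0.0539 to 0.0652) and without the filter (0.0716). In cKO the chemokine scavenger Ackr1 also rose (2.73), with 0.0277 to 0.620 CPM in CL and 4.62 to 8.30 CPM in IL, and Ccr1l1 fell (-1.14), with Ctrl values of 1.35 and -0.26 that were not called and no called difference between genotypes in these effects. Ackr1 in Ctrl CL was 43.5, 23.6, 0.353 and 0.311 CPM in mice 3541, 3545, 3546 and 3551. In Ctrl IL of the same mice it was 18.8, 25.9, 7.36 and 17.0 CPM. The Ctrl count of 5 was 2 without Ctrl CL 3546, Ctrl IL 3541 or Ctrl IL 3545 and 3 without Ctrl CL 3545, Ctrl CL 3551 or Ctrl IL 3551, and the cKO call of Ackr1 was lost in a single fit of all 14 libraries (adjusted p = 0.150). Between genotypes 0 of 24 in IL and 0 of 21 in CL were called by limma. An unadjusted p at or under 0.05 was found for 3 higher and 4 lower in IL and for 2 higher and 6 lower in CL. Over all genes it was found for 864 higher and 644 lower of 16919 in IL and for 826 and 802 of 16603 in CL.

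**Figure D5:**
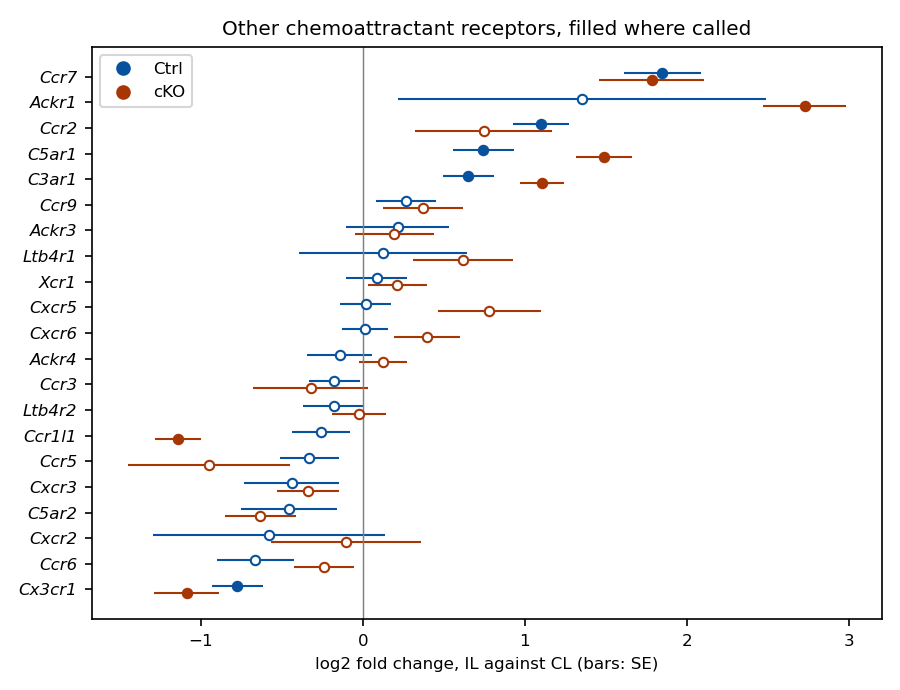
Log2 fold change of IL against CL (horizontal axis, bars are SE) of the 21 other chemoattractant receptors tested in both genotypes, Ctrl in blue and cKO in orange, filled where called. Ccr7, C5ar1 and C3ar1 are called higher and Cx3cr1 lower in both.

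The ligands of the receptors were measured in the same cells. Of 19 genes for ligands and the enzymes that make or break them, 1 rose and 2 fell in Ctrl and 4 rose and 3 fell in cKO, IL against CL, with medians of -0.30 and 0.047, beside the same shares of all genes, 3.63% and 2.96% in Ctrl and 12.8% and 9.52% in cKO. Besides the PAF genes, cKO had rises of Saa3 (2.56), an agonist of Fpr2, of Ccl7 (1.64), a monocyte chemokine that binds Ccr1, and of Mif (0.98), a cytokine that also binds Cxcr4. In Ctrl these 3 had values of 1.39, 0.38 and 0.39 and were not called, with Saa3 higher in IL in all 4 mice and Ccl7 and Mif in 3 of 4, and the difference between genotypes in the injury effect was called for none of them. The cKO call of Mif was lost without cKO IL 784 or cKO IL 791 (adjusted p = 0.0751 and 0.0877), without the filter (0.0578), in a single fit of all 14 libraries (0.365) and with the mouse as a random effect in it (0.132). Camp, the neutrophil granule peptide that acts on Fpr2, fell by 1.95 in cKO, a call that was lost in a single fit of all 14 libraries (adjusted p = 0.231) and with the mouse as a random effect in it (0.0704). In Ctrl its value was -3.27 (adjusted p = 0.0695), called with the mouse as a block (adjusted p = 0.00717). Cxcl12, the ligand of Cxcr4, was at 2.05 to 10.2 CPM and was not called in any comparison. Ccl3, a ligand of Ccr1, was at 354 to 1508 CPM and was not called either. In Ctrl the count of 3 was 1, Lpcat1 alone, without Ctrl CL 3546, Ctrl IL 3541 or Ctrl IL 3545. Between genotypes 0 of 19 were called by limma in either hemisphere. An unadjusted p at or under 0.05 was found for 2 higher and 1 lower in IL and for 1 higher and 0 lower in CL. Over all genes the counts were 864 higher and 644 lower of 16919 in IL and 826 and 802 of 16603 in CL.

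Of 27 genes for signalling and desensitisation of these receptors, 0 rose and 2 fell in Ctrl, and 2 rose and 6 fell in cKO, with medians of 0.043 and -0.066, again beside 3.63% and 2.96% of all genes in Ctrl and 12.8% and 9.52% in cKO. Rgs2, a regulator that shortens G protein signals, fell by 1.0 in Ctrl and 1.27 in cKO, and Gna15, a promiscuous G protein subunit of blood cells, fell by 0.77 and 0.71. The Ctrl call of Gna15 was lost without 6 of the 8 libraries, each left out alone (adjusted p = 0.0708 to 0.104), and without the filter (0.0878), and its cKO call without cKO IL 791 or cKO IL 3592 (0.0574 and 0.0551). The Ctrl call of Rgs2 was lost without Ctrl CL 3545 or Ctrl IL 3551 (0.0567 and 0.0640) and without the filter (0.0671). In cKO, Gng2, Rgs10, Pik3cg and Pik3r6 also fell (by 0.76, 0.62, 0.57 and 0.46), the last 2 being subunits of the phosphoinositide kinase downstream of these receptors. In Ctrl their values were -0.66, -1.01, -0.59 and -0.42, lower in IL in all 4 mice and called with the mouse as a block, and the difference between genotypes in this effect was called for none of these 4 genes. The cKO call of Rgs10 was lost in the single fit of all 14 libraries (adjusted p = 0.342) and with the mouse as a random effect in it (0.14), and that of Gng2 without cKO IL 784 or cKO IL 791 (0.0519 and 0.0595). The cKO call of Pik3r6 was lost with the block (adjusted p = 0.117), in the single fit of all 14 libraries (0.124) and without the filter (0.0503). It was also lost without any 1 of the cKO libraries other than cKO CL 791. Rgs16 (0.99) and Gng5 (0.70) rose in cKO, with Ctrl values of 0.15 and 0.043 that were not called and no called difference between genotypes. In a single fit of all 14 libraries neither Rgs16 nor Gng5 was called in cKO (adjusted p = 0.080 and 0.502), and Gng5 was not with the mouse as a random effect either (adjusted p = 0.298). The count of 2 in Ctrl was 0 without Ctrl CL 3545 or Ctrl IL 3551, and 1 without Ctrl CL 3546, Ctrl IL 3541 or Ctrl IL 3545, and that of 8 in cKO was 5 without cKO IL 791. With the mouse as a block the Ctrl count was 7, in a fit that called 9.81% of all genes higher and 10.7% lower. Between genotypes 0 of 27 were called by limma in either hemisphere. An unadjusted p at or under 0.05 was found for 1 higher and 2 lower in IL and for 1 higher and 1 lower in CL. Over all genes the counts were 864 higher and 644 lower of 16919 in IL and 826 and 802 of 16603 in CL.

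The genes most like the other members, over the same 14 libraries and 9752 genes, were as follows. Cxcr4 was most like Cd44 (r 0.980), the adhesion receptor for hyaluronan, and Prdx6 (0.976) and Clec4n (0.975), the gene of the lectin Dectin-2. Ccrl2 was most like Id2 (0.962), B3gnt7 (0.962) and Rasgef1b (0.937). Ccr1 was most like Napsa (0.933), Thbd (0.932) and Arfgap3 (0.931). Cmklr1 was most like Pja1 (0.943), Gnl2 (0.914) and Limd2 (0.900), and Ptafr like Ehd4 (0.877), Fbxl14 (0.875) and Tti2 (0.861). These libraries share mice, groups and depth, so that likeness over them is a description. Among the members, Ccr1 and Cxcr4 had an r of 0.842 and Ccrl2 and Fpr1 had -0.519.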

How the data were processed

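RNA was measured in CD11b+ cells sorted with magnetic beads and made into Smart Seq v4 libraries, 14 in 4 groups. The authors mapped the reads with STAR in Partek 8.0 to mm10, and the deposited values, named raw counts, are CPM, since each library sums to 1000000. In each library 79.0% to 83.5% of the values under 100 reads are whole multiples of 1 step (tolerance 0.03), and the rest are not, so that whole counts were not recovered and count tests were not used. The counting precision of a value follows the depth, 12.2 to 41.6 M reads, M being 1000000, with a median of 34.2 M. The authors' tables of comparisons hold their p-values, FDR, fold changes and group means, and were not used. The level of the targeted gene is not reported here.

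Libraries were scaled by an unweighted trimmed mean of M-values (30% of M, 5% of A trimmed) and fitted as log2(CPM + 1) with limma 3.58.1 in R 4.3.3, with a trend. Genes entered with the CPM of 10 reads at median depth in no fewer libraries than the smaller group has, and all 7 members passed in each fit. Spread is between mice. Mouse numbers pair the hemispheres, since the same number is the same animal. Same-mouse deviations from the group means correlated at 0.182 to 0.608 in 6 pairs, against -0.536 to 0.503 in 19 other pairs. Alternatives were the scaling, pseudocount, filter, thresholds, a single fit of 14 libraries, the mouse as a block and leaving out each library. Fits without a mouse term were tried on simulated libraries with a single spread for all genes and no mouse effect. Such libraries cannot show how the fits do at the spread between these mice, and nothing is concluded from them. Named genes are the members, up to 5 higher and 5 lower called genes of each pathway list per comparison, ligands beside their receptor, the first 2 markers of a list, and the 3 genes most like each member. Hp and the other genes of that likeness ranking need a mean log2 level of at least 3. The members and lists were chosen with earlier results of these data known. Python 3.11.15, pandas 2.3.3, numpy 2.4.6 and matplotlib 3.10.9 did the rest. Gene positions are from the GENCODE annotation of GRCm38.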

Additional observations from a re-analysis of the deposited data

How the results depend on the processing

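Of 686 values of the 7 members under the alternatives, 634 kept direction and side of the threshold, 5 lost a call, 19 gained one and 28 changed sign, all 28 on values that were not called. IL against CL in Ctrl, the number of members called was 1, and it was 2 with the deposited CPM, with median-ratio and with upper-quartile scaling (Cxcr4 and Ccrl2), and 0 without the filter. With the replicate block it was 5 with the mouse as a fixed block, and also 5 as a random effect over 14 libraries, where Cmklr1 was called and Fpr1 was not, and it ranged from 0 to 2 over the libraries left out in turn. In cKO it was 1, and 3 with either paired fit, and 1 to 2 over the libraries left out. Between genotypes it was 0 in CL, and 0 to 1 over the libraries left out, and 0 in IL and for the interaction throughout the alternatives. The fixed block changed no other call of a member. Ptafr in Ctrl was 0.035 with median-ratio scaling, 0.048 with upper-quartile scaling and 0.017 in both single fits of 14 libraries, and -0.15 to 0.13 over the libraries left out. Over the libraries left out, IL against CL in cKO ranged from -0.70 to 0.15 for Fpr1 and -0.60 to 0.14 for Fpr2, cKO against Ctrl from -0.46 to 0.061 for Cxcr4 in IL, from -0.40 to 0.13 for Ccr1 and from -0.67 to 0.018 for Cxcr4 in CL, and the interaction from -0.39 to 0.13 for Ccr1, -0.43 to 0.23 for Ccrl2 and -0.22 to 0.48 for Cxcr4. All genes called numbered 1078 in Ctrl (487 to 4479 over the alternatives), 3746 in cKO (822 to 3851), 112 between genotypes in IL (46 to 284), 145 in CL (70 to 290) and 0 for the interaction (0 to 3). Where a call changed, the cause was not tested, other than fewer samples where a library was left out.

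Fpr2 had the fewest reads, 17 in its lowest library, and 3 or 4 mice a group limit every comparison between genotypes.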
